A study of Mus musculus with 4 samples.

Results

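The genes described here are 44 genes whose products build and cap the sugar chains of mucins and other glycoproteins of the mouse colon. They were chosen by name, with earlier results of these data known, so their shares set beside those of all genes are a description. The list falls into 5 steps: initiation (10 genes), core extension (14 genes), sialylation (10 genes), fucosylation (4 genes) and sulfation (6 genes). Of the 44 members, 42 had a probe set carrying their symbol alone, among 18194 genes named in the same way. Gcnt4 and B4galnt3 had no probe set of that symbol in the annotation used and were not analysed here. Of the 42, 40 reached a log2 value of 5, the floor below which the values carried little information, on at least 1 array, and 37 reached it on all 4.

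O-linked glycosylation of mucins starts in the Golgi apparatus, where a polypeptide GalNAc-transferase attaches N-acetylgalactosamine to a serine or threonine of the protein. Other enzymes then extend this sugar into core structures and lactosamine chains, and sialic acid, fucose, sulfate or the Sda antigen closes the chain ends. In the colon these chains make up most of the mass of the mucins, which goblet cells secrete into the mucus barrier and absorptive cells carry on their surface. Several of the listed enzymes also act on N-glycans or glycolipids, so their RNA levels are not a readout of mucin chains alone.

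The samples were 4 arrays from male mice, 1 array per group, in 2 pairs. In H2B-GFP mice, a histone H2B fused to green fluorescent protein was placed behind a tetracycline-responsive element. Doxycycline was given for 7 days and then withheld for 2 days, after which epithelial cells sorted from isolated colonic crypts gave a GFPhigh array (cells that had kept the label, non-proliferating) and a GFPlow array (cells that had diluted it, proliferating). In mice with a doxycycline-inducible β-catenin gene, isolated colonic crypts gave a Dox minus array (untreated mice) and a Dox plus array (given doxycycline for 5 days, as drinking water with 2.0 mg/ml). β-catenin is the transcriptional effector of Wnt signalling. Both H2B-GFP groups had received doxycycline, whereas Dox minus had received neither the drug nor the induction, so the drug and β-catenin cannot be told apart in that pair. The sources used here do not give the promoter behind the transactivator, the strain, the ages or the number of mice per array.

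The values are log2 GCRMA values, and a difference of 1 is a 2-fold difference. Log2 differences were taken within a pair, for genes at or above the floor on at least 1 of its 2 arrays. Lower values were set to the floor. Where levels are ranked across pairs, mouse line, sort and preparation differ too and cannot be told apart. Such rankings are a description of the arrays. With 1 array per group there was no replicate check, no test and no p-value for any difference. The number of arrays sets the limit on precision. In these bulk samples, fewer cells of a type and less RNA per cell cannot be told apart. Probe set values correlated at r = 0.985 within each pair and at 0.930 to 0.941 across pairs. The 7 epithelial markers were at the floor or above on all arrays, with mean log2 values of 13.64 to 13.97, and 8 of 9 measured proliferation markers were at least 2-fold higher in GFPlow. The Wnt target markers averaged 6.75 in GFPhigh and 8.11 in GFPlow, and 8.86 in Dox minus and 11.05 in Dox plus.

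**Figure D1:**
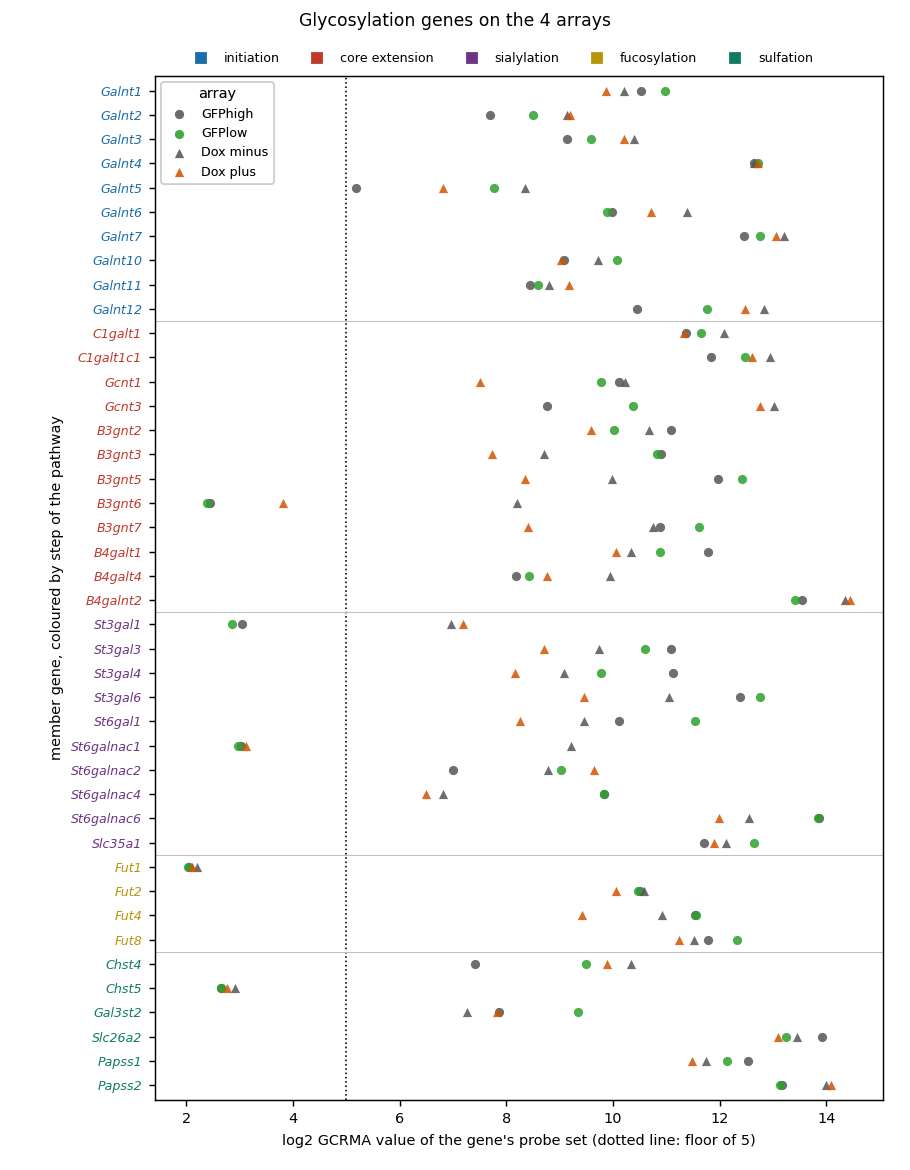
Each row is a member gene and each point its log2 GCRMA value on 1 of the 4 arrays, with circles for the GFP pair, triangles for the Dox pair and a dotted line at the floor of 5. Most members lie between 7 and 14 on every array, Fut1 and Chst5 lie under the floor throughout, and B3gnt6 and St6galnac1 reach it on Dox minus alone.

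In the GFP pair, proliferating cells had the higher value for most of these genes, with the largest differences in a few enzymes of initiation, sialylation and sulfation. Galnt5, Chst4, St6galnac2, Gcnt3, Gal3st2, St6gal1 and Galnt12 were at least 2-fold higher in GFPlow, by 5.99-fold down to 2.48-fold. St3gal4 and B3gnt2 were the members at least 2-fold lower in GFPlow, by 2.56-fold and 2.10-fold. Of all 9381 measured genes, 53.2% had a difference above 0. Of the 37 measured members, all at the floor or above on both arrays, 24 (64.9%) were above 0 and 13 below. Past 2-fold these were 7 higher (18.9%), where 8.81% of all 9381 measured genes were, and 2 lower (5.41%), where 4.30% of all genes were. The median difference was 0.27 over the members and 0.04 over all genes.

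In the Dox pair, most members had the lower value after induction, and the largest differences were in enzymes that extend and sialylate the chains. St6galnac1 and B3gnt6 were above the floor in Dox minus and under it in Dox plus. Gcnt1, B3gnt7, B3gnt5, St3gal6, Galnt5, Fut4, St6gal1, B4galt4, B3gnt2 and St3gal3 were lower by 6.56-fold down to 2.06-fold. Of 40 measured members, 8 (20.0%) had a difference above 0, where 55.0% of all genes did, and 32 were below. The median was -0.40 over the members and 0.06 over all genes. No member was at least 2-fold higher in Dox plus, where 6.93% of all 9537 measured genes were, and 12 (30.0%) were at least 2-fold lower, where 5.35% of all genes were. St6galnac1 and B3gnt6 entered this count through Dox minus alone. Among the 38 members at the floor or above on both arrays, 10 (26.3%) were at least 2-fold lower, against 4.90% of all such genes.

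**Figure D2:**
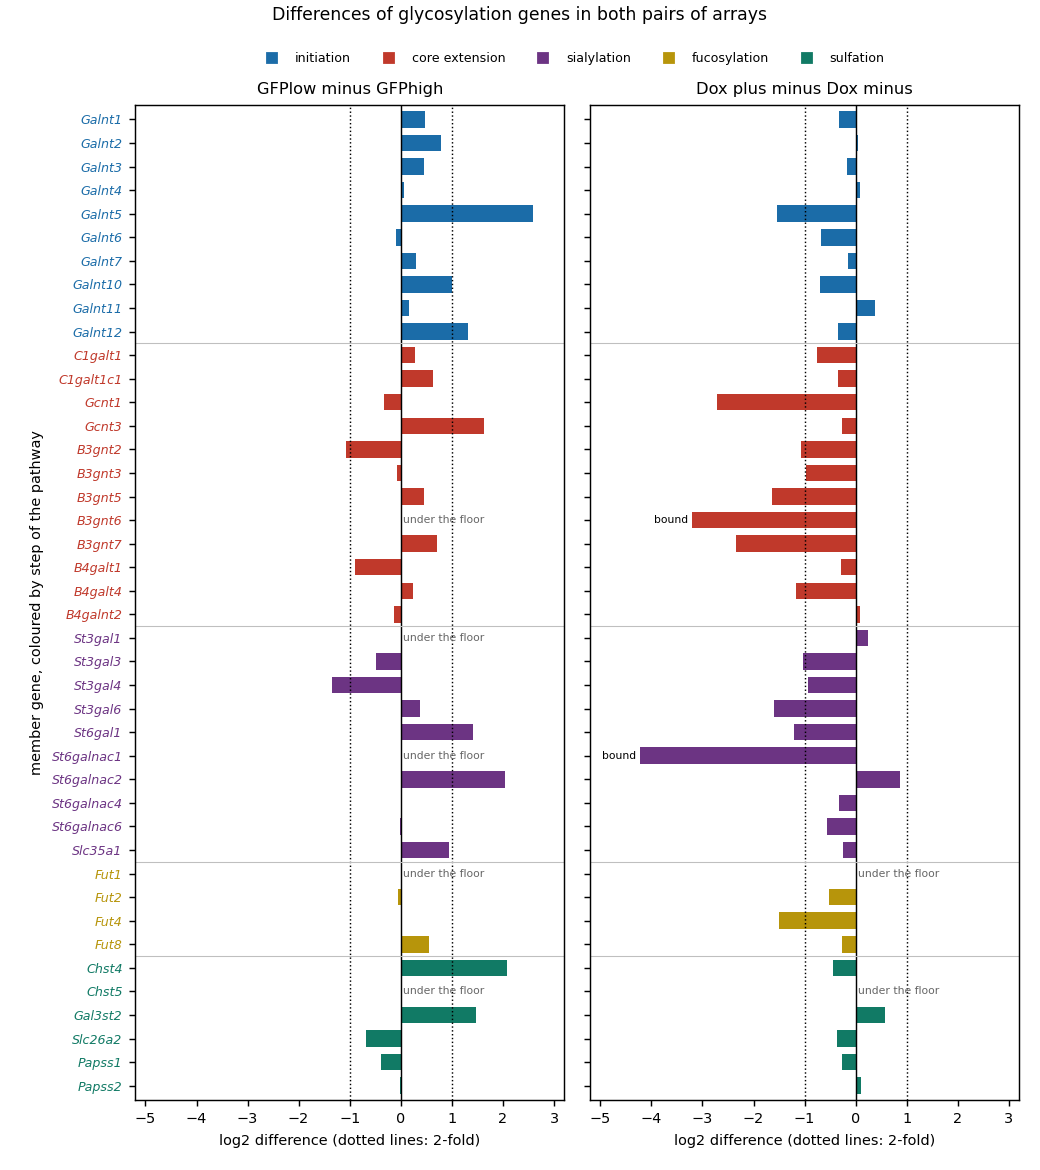
Bars give the log2 difference of each member within the GFP pair (left) and the Dox pair (right), coloured by step, with dotted lines at 2-fold and bounds marked. The initiation genes lie mostly right of 0 in the GFP pair, and 11 of the 12 core extension genes lie left of 0 in the Dox pair.

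The initiating GalNAc-transferases decide which serines and threonines receive a chain. As a group their median difference was 0.46 in GFPlow, with 9 of 10 above 0 and 2 past 2-fold, and -0.26 in Dox plus, with 7 of 10 below 0 and 1 past 2-fold. Galnt5 had a log2 value of 5.18 in GFPhigh, 7.77 in GFPlow, 8.36 in Dox minus and 6.81 in Dox plus. It was near the floor in non-proliferating cells and highest in untreated crypts, a difference of 2.58 in the GFP pair and -1.55 (2.92-fold lower) in the Dox pair, the largest among the initiation genes in each. Galnt12, whose human counterpart is mainly expressed in the digestive tract, had 10.45 in GFPhigh, 11.76 in GFPlow, 12.82 in Dox minus and 12.47 in Dox plus. Its difference was 1.31 in the GFP pair and -0.35 after induction.

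The other initiation genes differed by less than 2-fold in both pairs on the probe set used. Galnt10, which prefers peptides that already carry GalNAc, lay just under the threshold in the GFP pair, at 9.08 in GFPhigh and 10.08 in GFPlow (2.00-fold when rounded), but its other measured probe set differed by 0.00. Galnt2, an enzyme with broad peptide specificity, was higher by 0.79 in GFPlow and differed by 0.05 in Dox plus, whereas its other measured probe set differed by 1.78 and 1.08. Galnt4, which also glycosylates peptides that already carry GalNAc, was nearly level over the arrays at 12.64, 12.71, 12.65 and 12.72. Its other measured probe set differed by 0.04 in the GFP pair and by 0.63 in the Dox pair. Galnt1, Galnt3, Galnt6, Galnt7 and Galnt11 differed by -0.09 to 0.47 in the GFP pair and by -0.68 to 0.38 in the Dox pair.

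Core extension had the lowest group median of the Dox pair. The median of the 11 measured genes was 0.24 in GFPlow, with 1 past 2-fold in each direction, and it turned to -0.0454 with the mean of a gene's probe sets. The median of 12 was -1.02 in Dox plus, with 11 below 0 and 6 past 2-fold. C1galt1, the core 1 synthase, and C1galt1c1, the chaperone it needs for activity, differed by 0.27 and 0.63 in the GFP pair and by -0.75 and -0.35 after induction. Core 1 is the base on which Gcnt1 builds core 2. Gcnt1 had 10.11 in GFPhigh, 9.78 in GFPlow, 10.23 in Dox minus and 7.51 in Dox plus. The first 3 arrays lay close together and Dox plus stood below them, 6.56-fold under Dox minus.

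Gcnt3, the mucin-type enzyme that makes both core 2 and core 4, had 8.76 in GFPhigh, 10.38 in GFPlow, 13.02 in Dox minus and 12.76 in Dox plus. It was 3.08-fold higher in GFPlow, and all 3 of its measured probe sets were at least 2-fold higher there. After induction it differed by -0.27 while Gcnt1, the other branching enzyme, differed by -2.71. B3gnt6, the core 3 synthase and the enzyme on which core 4 depends, had 2.45 in GFPhigh, 2.38 in GFPlow, 8.20 in Dox minus and 3.81 in Dox plus. It reached the floor in untreated crypts alone, so its fall of at least 9.21-fold in the Dox pair is a bound, and it was not measured in the GFP pair. At the floor or above on Dox minus and on no other array were 2 members, B3gnt6 and St6galnac1, of the 40 at the floor on any array, and 1.23% of all 9895 such genes.

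The other β1,3-N-acetylglucosaminyltransferases lengthen chains. B3gnt7, which adds GlcNAc in lactosamine and keratan sulfate chains, had 10.89 in GFPhigh, 11.60 in GFPlow, 10.75 in Dox minus and 8.40 in Dox plus, a 5.11-fold lower value after induction. B3gnt5, which starts lacto-series glycolipids, had 11.97, 12.42, 9.99 and 8.35 in the same order, 3.10-fold lower in Dox plus. Both were somewhat higher in GFPlow (by 0.72 and 0.45) and lowest of all on Dox plus. B3gnt2, the main polylactosamine synthase, had 11.09 in GFPhigh, 10.02 in GFPlow, 10.66 in Dox minus and 9.59 in Dox plus. It was the member past 2-fold lower in both pairs, with a difference of -1.07 in each. B3gnt3, which extends core 1, differed by -0.08 in the GFP pair and by -0.98 after induction, just inside 2-fold.

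Galactosyltransferases and the Sda synthase complete this step. B4galt4, a galactosyltransferase whose human counterpart favours sulfated GlcNAc, had 8.18 in GFPhigh, 8.42 in GFPlow, 9.95 in Dox minus and 8.77 in Dox plus. It was 2.26-fold lower in Dox plus and differed by 0.24 in the GFP pair. B4galt1, the general lactosamine galactosyltransferase, differed by -0.90 in GFPlow and by -0.28 in Dox plus. B4galnt2, which adds the terminal GalNAc of the Sda antigen, lay between 13.42 and 14.43 and differed by -0.13 and 0.08. Another of its probe sets differed by -1.30 in the Dox pair, so its probe sets disagree.

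The sequences before the start of 4 genes are shown because these had the largest falls in Dox plus among the members with an entry in RefSeq's promoter table, which held 32 of the 44 members. They are given on the gene's strand, in build GRCm38.p6, up to the outermost annotated start. Capitals mark matches to the searched letters on either strand: TCF/LEF (CTTTGAT), E-box (CACGTG), unfolded protein response core (TGACGTG), interferon regulatory factor core (AANNGAAA), GC box (GGGCGG) and TATA box (TATAAA).
Gcnt1, chr19:17372845-17373094, minus strand: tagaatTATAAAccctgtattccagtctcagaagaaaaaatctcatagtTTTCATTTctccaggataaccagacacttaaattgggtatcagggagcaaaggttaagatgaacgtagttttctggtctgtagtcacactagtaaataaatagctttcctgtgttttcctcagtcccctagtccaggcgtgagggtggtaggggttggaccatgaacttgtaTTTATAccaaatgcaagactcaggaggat
B3gnt7, chr1:86302971-86303220, plus strand: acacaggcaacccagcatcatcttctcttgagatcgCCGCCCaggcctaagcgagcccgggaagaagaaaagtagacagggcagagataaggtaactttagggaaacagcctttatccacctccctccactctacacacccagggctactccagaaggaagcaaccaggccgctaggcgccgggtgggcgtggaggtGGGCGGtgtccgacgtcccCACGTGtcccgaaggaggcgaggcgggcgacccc
B3gnt5, chr16:19759984-19760191, plus strand: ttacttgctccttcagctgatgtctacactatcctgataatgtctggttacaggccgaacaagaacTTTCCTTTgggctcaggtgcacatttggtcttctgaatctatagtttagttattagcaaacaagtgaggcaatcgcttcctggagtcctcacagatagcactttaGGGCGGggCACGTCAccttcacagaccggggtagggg
St3gal6, chr16:58524261-58524503, minus strand: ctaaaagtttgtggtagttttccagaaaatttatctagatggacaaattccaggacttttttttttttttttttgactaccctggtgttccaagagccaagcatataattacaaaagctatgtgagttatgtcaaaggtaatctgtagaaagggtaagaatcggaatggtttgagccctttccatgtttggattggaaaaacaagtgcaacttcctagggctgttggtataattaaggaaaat

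The 4 stretches had little in common in these letters. The Gcnt1 stretch held 2 TATA matches and 1 interferon regulatory factor core, the B3gnt7 stretch 2 GC boxes and 1 E-box, and the B3gnt5 stretch 1 GC box, 1 interferon regulatory factor core and 1 unfolded protein response core. The St3gal6 stretch held none of them. GC content was 40.4% for Gcnt1, 61.6% for B3gnt7, 48.1% for B3gnt5 and 35.0% for St3gal6, against a median of 52.4% over all windows. In the 250 bases before the start, the TCF/LEF letters were in 1 of 45 member windows, that of Fut8, and in 3.21% of 32851 windows of all genes. None of the 10 genes with a window among the 12 that were 2-fold lower in Dox plus held these letters. GC boxes were in 24 of the 45 member windows (53.3%) and in 32.7% of all windows, and the interferon regulatory factor core was in 5 of 45 (11.1%) and in 21.3%. The E-box, unfolded protein response and TATA letters were in 1, 1 and 2 member windows, and in 6.02%, 1.65% and 12.4% of all windows.

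Sialyltransferases cap the chains with sialic acid. The 7 measured in the GFP pair had a median difference of 0.01, with 2 higher and 1 lower past 2-fold, and the 9 measured in the Dox pair had -0.93, with 4 lower past 2-fold. With the sialic acid carrier Slc35a1 in the group, the medians were 0.19 and -0.75, and the former was -0.0001 with no floor. St6galnac1, which puts sialic acid on the first GalNAc to make the sialyl-Tn antigen and stops further growth of the chain, had 3.02 in GFPhigh, 2.97 in GFPlow, 9.22 in Dox minus and 3.11 in Dox plus. It reached the floor in untreated crypts alone, at least 18.6-fold above Dox plus. Its other probe set was under the floor on all 4 arrays, so the difference rests on 1 probe set.

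St6galnac2, its direct neighbour in the genome with no protein-coding gene between them, had 6.99 in GFPhigh, 9.03 in GFPlow, 8.78 in Dox minus and 9.65 in Dox plus. St6galnac2 sialylates the GalNAc of core 1, and it was 4.09-fold higher in GFPlow and 1.82-fold higher in Dox plus, the member with the largest positive difference of the Dox pair. The neighbours thus differed in opposite directions in the Dox pair. St6gal1, which sialylates lactosamine ends, mostly of N-glycans, had 10.11 in GFPhigh, 11.53 in GFPlow, 9.46 in Dox minus and 8.25 in Dox plus. It was 2.66-fold higher in GFPlow and 2.32-fold lower in Dox plus.

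The St3gal enzymes cap galactose. St3gal6 had 12.38 in GFPhigh, 12.75 in GFPlow, 11.05 in Dox minus and 9.45 in Dox plus, with a difference of 0.37 in the GFP pair and a 3.03-fold lower value in Dox plus. St3gal3 had 11.08, 10.59, 9.74 and 8.70 in the same order, with differences of -0.49 and -1.04. Its other probe set differed by -1.56 and -0.27, and with the mean of both the Dox difference was -0.65, under 2-fold. St3gal4 had 11.13, 9.77, 9.08 and 8.15, with differences of -1.36 in GFPlow and -0.93 in Dox plus. These 3 enzymes of lactosamine ends were all highest in the GFP pair and lowest on Dox plus. St3gal1, which caps core 1, was at the floor or above on both Dox arrays (6.95 and 7.19) and under it on both GFP arrays. Among genes at the floor on any array, 1 of 40 members and 269 of all 9895 had this pattern.

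The remaining sialylation genes stayed within 2-fold. St6galnac4, which adds sialic acid to sialylated core 1, differed by 0.01 and -0.33, although its other probe set differed by 1.37 in the GFP pair. St6galnac6, adjacent to it in the genome and an enzyme that can sialylate gangliosides, differed by -0.01 and -0.57 at levels of 11.98 to 13.86. Slc35a1, which carries CMP-sialic acid into the Golgi, was higher by 0.94 in GFPlow and differed by -0.24 in Dox plus.

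Fucosylation differed little in the GFP pair on the probe sets used. Fut4, an α1,3-fucosyltransferase that makes Lewis x, had 11.53 in GFPhigh, 11.56 in GFPlow, 10.91 in Dox minus and 9.41 in Dox plus. It was 2.82-fold lower in Dox plus, but its other probe set, close to the floor, differed by 0.43 the other way. Fut8, which adds the core fucose of N-glycans, had 11.77, 12.32, 11.51 and 11.24 in the same order, with differences of 0.54 and -0.27. Another Fut8 probe set, under the floor in GFPhigh (4.57) and at 6.20 in GFPlow, differed by at least 1.20 in the GFP pair. Fut2, the intestinal α1,2-fucosyltransferase that makes the H antigen of secreted mucins, differed by -0.05 and -0.53. Fut1, a related enzyme of the H antigen, was under the floor on all 4 arrays. The median of the 3 measured genes was 0.02 in the GFP pair and -0.53 after induction.

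Of the 5 measured sulfation genes, 2 were past 2-fold higher in GFPlow. Chst4, which sulfates GlcNAc, had 7.41 in GFPhigh, 9.49 in GFPlow, 10.34 in Dox minus and 9.89 in Dox plus, 4.23-fold higher in GFPlow. Gal3st2, which sulfates galactose, had 7.87, 9.34, 7.25 and 7.82 in the same order, 2.76-fold higher in GFPlow. The proliferating cells had the higher value for both transferases, which differed by -0.44 and 0.56 after induction. The sulfate transporter Slc26a2 differed by -0.68 in GFPlow, and its other 2 probe sets by -0.77 and -1.34. Papss1 and Papss2, which make the activated sulfate donor PAPS, differed by -0.38 and -0.03 in the GFP pair and by -0.26 and 0.10 after induction. Chst5, a further GlcNAc sulfotransferase, was under the floor on all 4 arrays. The group median was -0.03 in the GFP pair and -0.26 after induction, with no member past 2-fold in the latter. Outside the members, the galactosylceramide sulfotransferase Gal3st1 and the PAPS carrier Slc35b2 differed by -0.35 and 0.76 in GFPlow.

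The differences of the pairs come from separate arrays, and 37 members were measured in both. Of these, 19 (51.4%) were higher in GFPlow and lower in Dox plus, where 16.0% of 9023 genes were. A further 11 were lower in both, 5 higher in both and 2 lower in GFPlow and higher in Dox plus. Across the members the differences correlated at r = 0.14, and across all genes at 0.29, given as a description since genes share arrays and are not replicates. Of the 16 of these members past 2-fold in at least 1 pair, 3 (18.8%) were so in both, a share close to the 18.7% of all genes (336 of 1798). Galnt5 and St6gal1 were higher in GFPlow and lower in Dox plus, and B3gnt2 was lower in each.

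**Figure D3:**
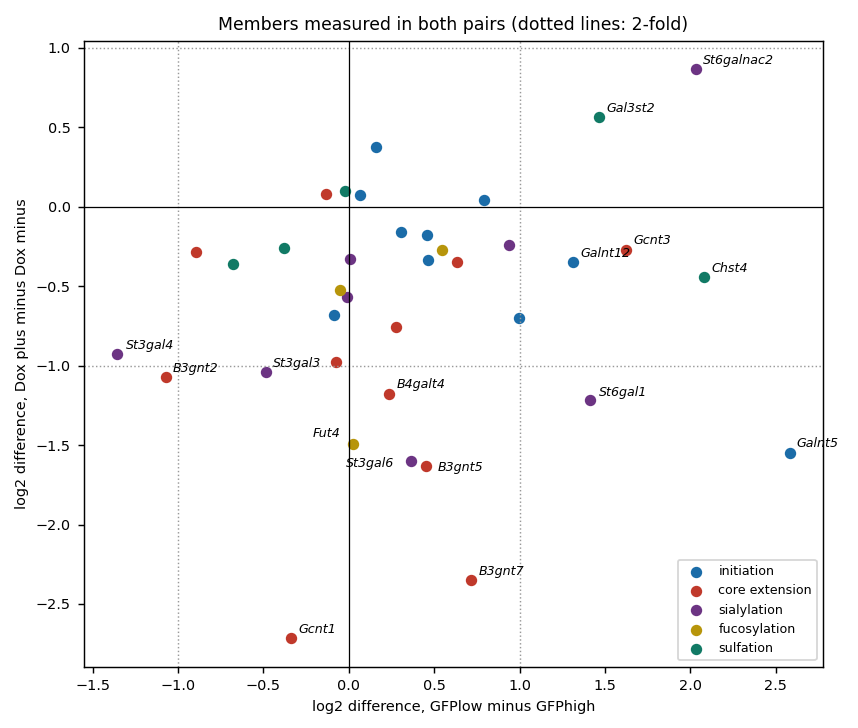
Each point is 1 of the 37 members measured in both pairs, with the log2 difference GFPlow minus GFPhigh across and Dox plus minus Dox minus up, and dotted lines at 2-fold. The lower right of the plot holds 19 of them, Galnt5 and St6gal1 past 2-fold on both axes, and St6galnac2 and Gal3st2 stand at the upper right.

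Where a member had several measured probe sets, these mostly had the same sign. In the GFP pair this held for 18 of 21 members, with C1galt1, Galnt6 and B4galnt2 as exceptions. For the Dox pair it held for 15 of 21, with Galnt1, Galnt7, B4galnt2, Fut2, Fut4 and Papss2 as exceptions. Of the members past 2-fold, 3 had several probe sets in the GFP pair and all were of one sign, with B3gnt2 and Gcnt3 past 2-fold on every probe set. Of the 12 in the Dox pair, 6 had several, 5 were of one sign, and St3gal6 was the member past 2-fold on every measured probe set. The other probe sets of B3gnt2, B3gnt5, St3gal3 and St6gal1 differed in Dox plus by -0.45, -0.38, -0.27 and -0.71. With the mean of a gene's probe sets, B3gnt2 (-0.76), St6gal1 (-0.96) and Fut4 (-0.53) also came under 2-fold there, as did St6gal1 in the GFP pair (0.99).

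**Figure D4:**
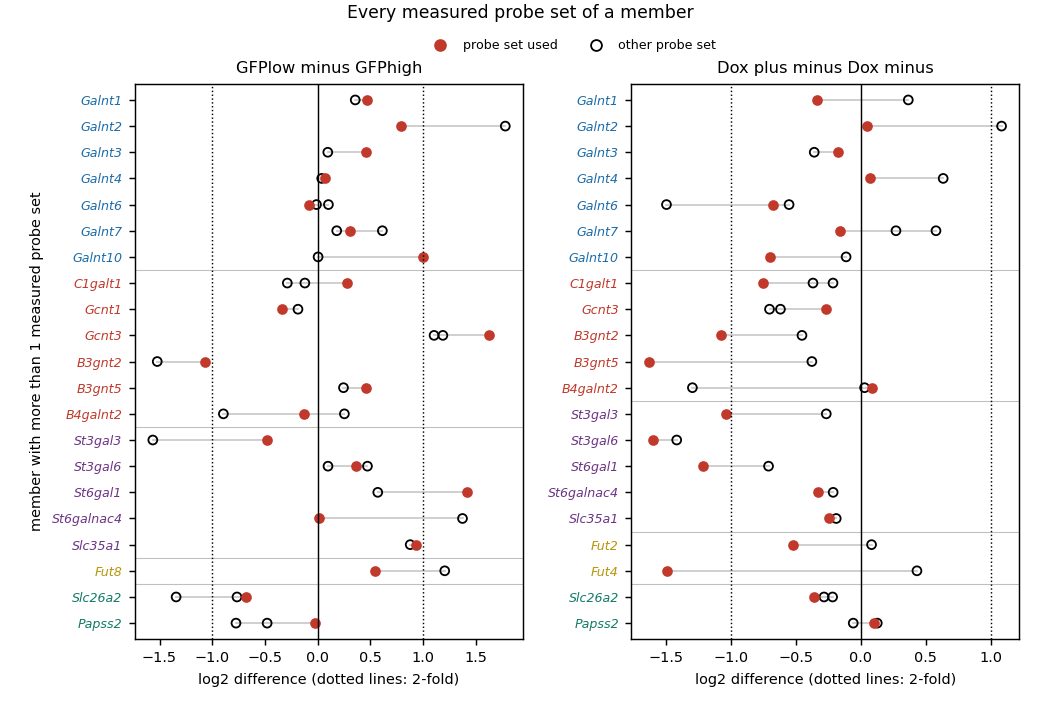
For each member with more than 1 measured probe set, the filled point is the log2 difference of the probe set used and open points are its other probe sets, for the GFP pair (left) and the Dox pair (right). Fut4 and B4galnt2 in the Dox pair have 1 probe set past 2-fold lower and another above 0.

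Other genes of the pathway were counted in the same way from 3 lists. These were also chosen with earlier results of these data known, so their contrast with the members is a description. Of the 9 further GalNAc-transferases, 8 had a probe set and none reached the floor, so the 10 initiation members were the ones measured here. Of 10 other extension and capping enzymes measured in the GFP pair, none was higher and 1 was lower past 2-fold, Gcnt2 (-1.73), which branches lactosamine chains. In the Dox pair 15 were measured, with B3galt2 higher (1.19) and B3gnt9 lower (-1.41, a bound). Donor supply had medians of 0.10 and -0.17 over 24 and 26 genes. Past 2-fold there, Nanp, a sialic acid phosphatase, was higher in GFPlow (1.04), and Slc35d1, a carrier of UDP-sugars into the endoplasmic reticulum, was lower in GFPlow (-1.44) and in Dox plus (-2.32). Fpgt, of the fucose salvage pathway, was lower in Dox plus (-1.32). Over these 3 lists, 1 of 34 genes was higher and 2 lower past 2-fold in the GFP pair, and 1 of 41 higher and 3 lower in the Dox pair.

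The mucins themselves, the proteins that carry these chains, had a median of 0.51 in GFPlow over 5 genes, 3 above 0 and 2 below. In Dox plus the median was -0.60 over 6, 1 above 0 and 5 below. Muc4, a membrane mucin, differed by 1.66 in GFPlow and by -1.91 in Dox plus. Muc2, the secreted gel-forming mucin of the colon, had 14.45 in GFPhigh, 15.15 in GFPlow, 14.74 in Dox minus and 14.29 in Dox plus, within 2-fold in each pair. Muc1 differed by 0.51 in GFPlow and by -1.44 in Dox plus, and the membrane mucin Muc3 by -0.37 and -0.75.

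Markers of epithelial cell types differed within both pairs beside these genes, and their part in the results was not tested. Goblet cell markers averaged 12.08 in GFPhigh and 13.32 in GFPlow, with 9 of 16 at least 2-fold higher, and 5 of 6 measured deep crypt secretory markers were as well. The 13 measured absorptive colonocyte markers averaged 13.04 in GFPhigh and 12.12 in GFPlow, with 5 at least 2-fold lower. Goblet markers averaged 12.70 without and 12.13 with induction, 3 of 16 past 2-fold lower, and colonocyte markers 12.31 and 11.77, 2 of 15 past 2-fold lower. Of the 7 deep crypt secretory markers, Mmp7 and Pla2g2a were past 2-fold higher after induction (1.91 and 2.11) and Ang4 and Itln1 past 2-fold lower (-3.30 and -2.69). The 9 measured enteroendocrine markers were all past 2-fold lower after induction, with means of 9.85 and 7.27, and 4 of 8 were past 2-fold lower in GFPlow.

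The 10 measured interferon-stimulated genes were likewise all past 2-fold lower after induction, with means of 11.09 and 7.05 (8.99 and 8.38 in the GFP pair). Among non-epithelial cell markers, Jchain, which plasma cells use for secreted antibodies, was 7.53 in Dox minus and under the floor on the other arrays. B3gnt6 and St6galnac1 had the same pattern, as 122 genes did in all, and a link to plasma cells was not tested. On the same marker list, Ighm reached the floor on GFPhigh alone (5.14). Sdc1 was at 12.57 to 13.58 on all 4 arrays and differed by -0.34 in Dox plus. The B cell genes Cd79a, Cd79b and Ms4a1 and the plasma cell gene Mzb1 were under the floor on all 4 arrays. Of the T cell markers Cd8a alone reached the floor, at 5.27 and 5.02 in the Dox pair, and no endothelial marker did. The 5 measured myeloid markers had a median difference of -0.08 in Dox plus, with Laptm5 at -1.53, Ptprc at -0.61 and Lyz2 at 0.71. Of the fibroblast and muscle markers Vim and Pdgfrb were measured there, with differences of -1.78 and -0.32.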

How the data were processed

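The authors deposited log2 values of 45101 probe sets on each array, computed by GCRMA according to the submitters' processing notes. GCRMA subtracts a background modelled from probe sequences, so low values carry little information. The sources used here give neither its version nor the arrays run in 1 batch. The arrays had 16945 to 17462 probe sets at or above the floor of 5.

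Probe sets were named from the platform annotation: 34958 had 1 symbol, 932 several and 9211 none, and those with 1 symbol were used. Of several probe sets of a gene, the one with the highest 4-array mean was used. A gene was measured in a pair when at least 1 array reached the floor. Lower values were set to 5, which makes the difference a bound, and a difference of 1 or more (2-fold) was counted. Members and gene lists were chosen with earlier results of these data known. Full values are given for members past 2-fold in either pair and for the 2 largest differences of each step. Of each list, members past 2-fold, or at most the 4 largest, may be named, and marker genes named beyond that, among them those under the floor, were picked after their values were seen. The code was tested on simulated data. Promoter sequences are RefSeq's, for GRCm38.p6. Alternatives were floors of 4 and 6, no floor, quantile normalization, loess (span 0.4), the mean of a gene's probe sets, dropping probe sets with the suffix _x, _s or _a, and a 1.5-fold threshold. Python 3.11.15, pandas 2.3.3, numpy 2.4.6, statsmodels 0.14.6 and matplotlib 3.10.9 were used.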

Additional observations from a re-analysis of the deposited data

How the results depend on the processing

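No paired analysis was possible because each group had 1 array and no result comes from a test. The floor, quantile and loess settings kept 7 members higher and 2 lower past 2-fold in GFPlow, and 12 to 14 lower with 0 higher in Dox plus. The mean of measured probe sets gave 3 lower in GFPlow and 8 lower in Dox plus. It moved the GFP medians of core extension to -0.0454, of sialylation to 0.50 and of sulfation to -0.38, and the Dox median of fucosylation to -0.27. Dropping probe sets with the suffix _x, _s or _a, which can match several transcripts, left 30 members measured for GFPlow and 33 for Dox plus. Of these, 6 were higher and 0 lower past 2-fold in GFPlow, and 9 were lower in Dox plus. The sialylation medians were then 0.52 and -0.45. Chst4, B3gnt2, B3gnt3, B4galt1, B4galt4, St3gal3 and St3gal4 were measured by such probe sets alone and dropped out. The smaller counts came from this loss: Chst4, B3gnt2 and St3gal4 for GFPlow, and B3gnt2, B4galt4 and St3gal3 for Dox plus. With no floor, the sialylation median in the GFP pair was -0.0001, since genes under the floor then count. At 1.5-fold, 12 of 37 members were higher and 4 lower in GFPlow, where 18.4% and 12.6% of all genes were. In Dox plus 1 of 40 was higher and 17 lower, where 17.4% and 11.7% of all genes were. Of 141 values of single genes under the alternatives, 136 kept their side of 2-fold and 0 changed sign, though many of them could not move. The other 5 came under 2-fold with the mean of probe sets: St6gal1 in the GFP pair (0.99), and B3gnt2 (-0.76), St3gal3 (-0.65), St6gal1 (-0.96) and Fut4 (-0.53) in the Dox pair. Averaging could act only on members with several measured probe sets: among those past 2-fold, 3 for GFPlow and 6 for Dox plus. The floor settings altered the values of Galnt5, B3gnt6 and St6galnac1 alone. The count of values kept is therefore not a measure of robustness. Signal near the floor limits B3gnt6, St6galnac1, St3gal1, Fut1, Chst5 and Galnt5. Galnt5 was at 5.18 in GFPhigh on its 1 probe set. Its difference in the GFP pair was 2.58 in the main setting and 1.77 with a floor of 6.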

Other observations

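Enzymes of N-glycan processing, the other main route of protein glycosylation, were set beside the members as a further list. In the GFP pair 18 of 22 measured genes were above 0 in GFPlow, with a median of 0.34, and none was at least 2-fold higher. Mogs, a glucosidase that trims new N-glycans, was higher by 0.89, and Ddost and Rpn1, subunits of the oligosaccharyltransferase, by 0.84 and 0.74. Mgat4c was the gene past 2-fold, with a difference of -1.54. In the Dox pair the median was 0.06, with 12 of 22 above 0 and none past 2-fold in either direction.

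Levels of several members also differed between the pairs, where mouse line, sort and preparation cannot be told apart. Gcnt3 averaged 9.57 on the GFP arrays and 12.89 on the Dox arrays, Chst4 8.45 and 10.11, and Galnt12 11.11 and 12.65. St6galnac4 averaged 9.83 on the GFP arrays and 6.65 on the Dox arrays, B3gnt5 12.20 and 9.17, and B3gnt3 10.86 and 8.22. Galnt4 averaged 12.68 and 12.69. The pairs also differed in control probe sets for 18S ribosomal RNA, which averaged 13.03 and 13.29 on GFPhigh and GFPlow and 3.25 and 2.56 on Dox minus and Dox plus.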
